A study of Mus musculus with 12 samples.

Results

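Uncultured haematopoietic stem and progenitor cells (HSPCs) of aged mice were compared with those of young mice by messenger RNA sequencing, across all genes. The comparison used 6 of the 12 libraries of the study, chosen by their titles: 3 of young and 3 of aged cells, all from bone marrow and none of them cultured. The other 6 libraries, of aged cells cultured with vehicle or with uridine, entered the shared estimate of the spread and the filter on low counts. With the 6 uncultured libraries alone, 15686 genes were tested, of which 5238 were called higher and 5063 lower. The genotype label reads c57bl/10 WT, c57bl/11 WT and c57bl/12 WT for the young libraries and c57bl/13 WT, c57bl/14 WT and c57bl/15 WT for the aged libraries, so that the strain is uncertain. No transgene or agent is named for these 6 libraries, and neither the age and sex of the mice nor the surface markers of the sort could be had from the labels. Nor do these say whether a group's 3 libraries stem from separate mice, and the spread behind every p-value may therefore be technical.

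HSPCs are the rare marrow cells from which all blood lineages arise. Stem cells divide seldom and give rise to progenitors that divide often and commit to the myeloid, erythroid, megakaryocytic or lymphoid lineage. With age the stem cell pool is known to grow and to produce fewer B cells, while long-lived plasma cells, which end the B lineage and secrete antibody, collect in the marrow. A plasma cell fills a large part of its messenger RNA with immunoglobulin transcripts.

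Library totals lay between 17203715 and 18925184 counts, and 16675 genes had enough reads to be tested. CPM denotes counts relative to the library total after its TMM factor was applied. A gene was called where edgeR's quasi-likelihood test gave an adjusted p below 0.05. Libraries of a group lay close together, but every pair differed beyond sampling noise, with a chi-square per degree of freedom of 2.53 to 2.72 in the young and 3.68 to 3.94 in the aged group. The common biological coefficient of variation was only 0.0438, so that small differences were called. The progenitor markers Kit and Cd34 were present in all 6 libraries, at 252, 259 and 251 CPM and 286, 280.3 and 279 CPM in young and 198, 204 and 203 CPM and 192, 203 and 207 CPM in aged libraries. Genes of mature blood cells were present as well, and the aged libraries carried plasma cell transcripts at high levels despite their HSPC label. The 4 Y-linked genes Ddx3y, Kdm5d, Uty and Eif2s3y had 0 counts in both groups, which allows up to 0.0561 CPM over the young and 0.0571 CPM over the aged libraries.

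The aged libraries differed from the young in most genes. In aged cells the genes of plasma cells, mature B cells, antigen presentation by MHC class II and ribosomal proteins were higher. Those of B cell precursors, maturing neutrophils, eosinophils, basophils, erythroid cells, DNA replication and mitosis were lower. Of the genes tested 65.3% were called, 5535 (33.2%) of them higher and 5354 (32.1%) lower, and the median log2 fold change was 0.02. Changes of at least 1 on the log2 scale were called in 21.7% of genes, 2105 (12.6%) higher and 1508 (9.04%) lower. The libraries of the groups did not overlap for 66.9% of genes. At 3 or more on that scale 618 genes were higher and 225 lower. The shares called are the background for each group of genes below. Because bulk RNA was measured, fewer cells of a type and less RNA per cell cannot be told apart in any of these groups.

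**Figure D1:**
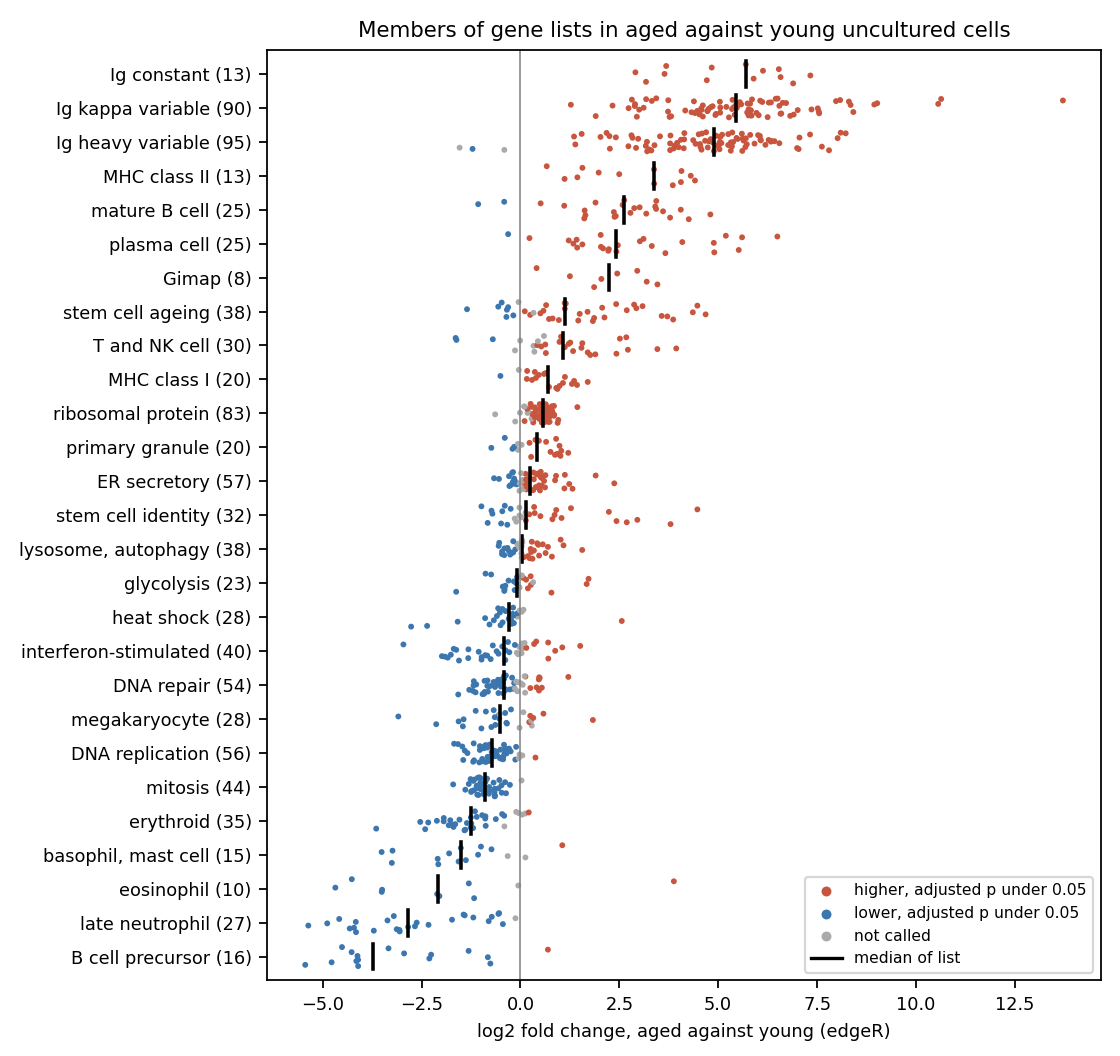
Log2 fold change of aged against young uncultured cells (horizontal axis) for the tested members of 27 gene lists (vertical axis, number of members in parentheses). Each point is a gene, coloured by its call, and black bars are list medians, which run from -3.72 for B cell precursor genes to 5.70 for immunoglobulin constant genes.

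Immunoglobulin genes and Jchain took 21.9%, 21.8% and 21.6% of all counts in the aged libraries and 0.544%, 0.540% and 0.544% in the young. A class of genes of this size lowers the share left for every other gene, and the comparison was therefore repeated with immunoglobulin genes and Jchain left out before scaling. The result hardly moved. Without them, 16557 genes were tested, of which 64.8% were called, 5445 (32.9%) higher and 5277 (31.9%) lower. In both fits 10586 genes were called in the same direction, 0 in opposite directions, and 66 of the genes tested in both lost their call. Among the 14067 genes at 1 CPM or more, the log2 fold change differed between the fits by 0.000463 to 0.00753. Large changes then numbered 1964 (11.9%) higher and 1477 (8.92%) lower, 20.8% of genes in all, and 66.3% of genes did not overlap. The choice of scaling factors mattered more. With TMM factors (0.836 in aged and 1.06 in young libraries) the immunoglobulin reads are discounted, whereas scaling to library totals alone moved the median of all genes by -0.34 and gave 3012 genes higher and 8614 lower. With immunoglobulin genes and Jchain left out, scaling to the remaining totals gave 5436 higher and 5293 lower. Changes below are relative to that median.

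Plasma cell genes rose nearly without exception. Of 25 factors and surface proteins of plasma cells, 24 rose and 1 fell (median log2 fold change 2.43), and the 2 groups of libraries did not overlap for any of them. Prdm1, the transcription factor that drives plasma cell differentiation, was at 4.70, 4.38 and 4.27 CPM in the young and 139, 127 and 134 CPM in the aged libraries. It was 29.9-fold higher in aged cells (log2 fold change 4.90, SE 0.103, adjusted p = 5.39e-31). Xbp1, which expands the secretory machinery, stood at 185, 179 and 188 CPM in the young and 855, 855 and 864 CPM in the aged libraries (log2 fold change 2.22, SE 0.0283, adjusted p = 5.18e-38). Every aged library lay more than 4-fold above every young library for it. Irf4, another factor of this programme, rose by 2.43 on the log2 scale. Among surface proteins, Sdc1 (CD138), the usual marker for sorting plasma cells, was at 23.7, 22.4 and 21.7 CPM in the young and 282, 279 and 299 CPM in the aged libraries (log2 fold change 3.66, SE 0.0574, adjusted p = 3.78e-35). Tnfrsf17 (BCMA), the survival receptor of long-lived plasma cells, was close to the detection limit at 1.10, 0.548 and 0.273 CPM in the young libraries and reached 31.8, 30.0 and 28.9 CPM in the aged (log2 fold change 5.52, SE 0.220, adjusted p = 2.79e-22). Ccr10, the homing receptor of IgA-secreting cells, likewise went from 1.05 ± 0.305 to 39.0 ± 2.90 CPM (mean ± SD, n = 3), and Cxcr3, another homing receptor, from 2.06 ± 0.509 to 8.39 ± 0.985 CPM. The regulators Zbtb32 and Nuggc rose by 5.60 and by 6.50, and Mzb1, a chaperone of antibody assembly, rose from 38.9 ± 1.58 to 389 ± 6.04 CPM. The exception was Cd9, a tetraspanin that megakaryocytes and stem cells also express, which fell by 0.31 (adjusted p = 2.70e-06).

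**Figure D2:**
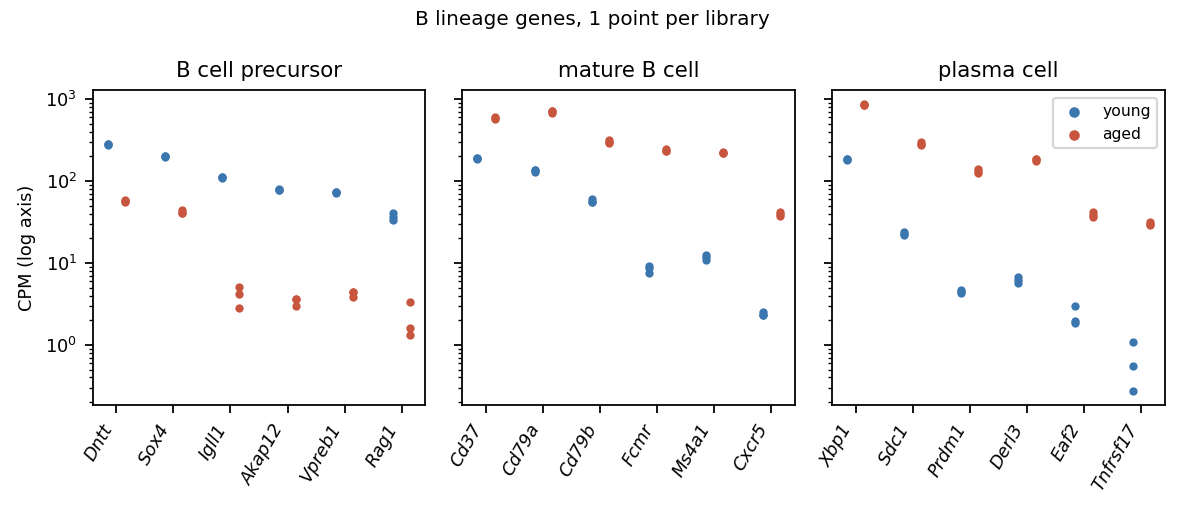
Level in CPM (vertical log axis) of 6 genes of B cell precursors, 6 of mature B cells and 6 of plasma cells, 1 point per library, young in blue and aged in red. Precursor genes are lower and mature and plasma cell genes higher in every aged library.

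The makeup of the immunoglobulin constant transcripts shifted along with their amount. Bulk counts do not tell which cells these reads came from. Igha, the constant region of IgA, was at 968, 953 and 971 CPM in the young and 114727, 113754 and 115440.1 CPM in the aged libraries (log2 fold change 6.89, SE 0.0136, adjusted p = 4.09e-64), and Ighm, that of IgM, at 1773, 1817 and 1757 CPM in the young and 13446, 13288 and 13339 CPM in the aged libraries (log2 fold change 2.91, SE 0.0151, adjusted p = 2.02e-50). Igkc, the kappa light chain constant region, went from 826 ± 8.83 to 57901 ± 1704 CPM, and all 13 measured constant genes rose (median 5.70). Within the heavy chain constant counts the order of the classes changed. Igha made up 33.7, 32.8 and 34.0% of them in the young and 82.2, 82.2 and 82.5% in the aged libraries, while Ighm made up 61.6, 62.6 and 61.4% and 9.63, 9.60 and 9.53%. The share of Ighg2c, an IgG subclass, went from 1.21, 1.10 and 1.24% to 3.97, 3.96 and 3.86%, that of Ighg2b from 1.84, 1.73 and 1.67% to 3.45, 3.53 and 3.36%, and that of Ighg3 from 0.803, 0.858 and 0.775% to 0.209, 0.216 and 0.204%. No share of these 5 constant genes overlapped between the groups. Near-identical constant regions and overlapping gene models make the split among the IgG subclasses uncertain.

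**Figure D3:**
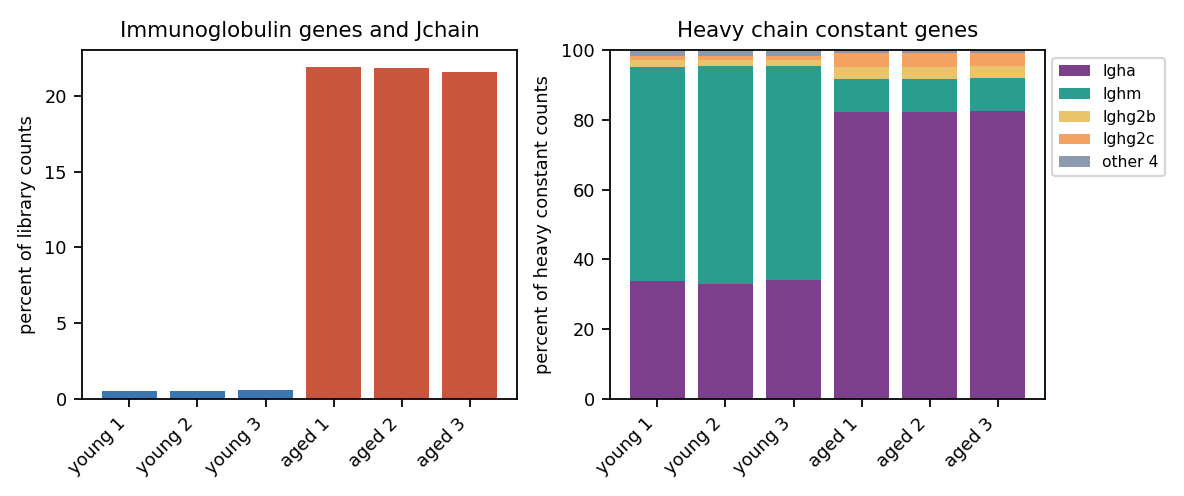
Percent of each library's counts in immunoglobulin genes and Jchain (left) and the makeup of the heavy chain constant counts (right), for the 3 young and 3 aged libraries. The aged libraries hold 21.6 to 21.9% immunoglobulin and Jchain counts, and Igha makes up 82.2 to 82.5% of their heavy chain constant counts.

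The variable segments, which encode the antigen-binding part, were higher for nearly all segments tested. Of 115 heavy chain segments 95 had enough reads to be tested, and 92 were called higher, 1 lower and 2 not called. Of 100 kappa segments 90 were tested, and all 90 were called higher. Median log2 fold changes were 4.89 and 5.46. Segments without young counts could pass the filter on low counts only through libraries of aged cells, so that their rise is no test. Use within the class stayed broad in both groups. The most used heavy segment was Ighv1-26 in every library, at 6.90, 6.61 and 7.16% of heavy variable counts in the young and 5.53, 5.36 and 5.41% in the aged libraries. The effective number of heavy segments in use (the inverse of the sum of squared shares) was 36.4 to 38.5 in young and 39.2 to 39.4 in aged libraries. For kappa, Igkv3-4 was most used in the young libraries and Igkv1-117 in the aged, where the share of Igkv1-117 was 7.96, 7.81 and 7.88% against 4.38, 4.41 and 4.19% in the young. The 3 aged libraries also used the segments alike. Over the 33 heavy segments with at least 1% of the class, the coefficient of variation between them had a median of 2.31% and a maximum of 7.93%, and for 32 kappa segments a median of 2.48%. Igkv8-24 was the exception, with 2595, 5340 and 4998 counts in the aged libraries. Chi-square values per degree of freedom between aged libraries were 3.63 to 5.26 for heavy and 9.98 to 24.4 for kappa segments. Igkv8-18, on chromosome 6 (70355852 to 70356445, GRCm38), was singled out after its values were seen. It had 1341, 1330 and 1440 counts in the aged libraries, 0.444% of their kappa variable counts, and 0 counts among 28592 in the young, which allows up to 0.0105%. Igkv8-34 and Igkv5-37, chosen in the same way, had 487 and 462 counts over the aged and 0 over the young libraries. Since all 3 were picked for having no young counts, their difference is a description. Variable segments resemble each other closely, so that reads may be split between neighbours.

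Plasma cells need a large endoplasmic reticulum, and genes of its secretory machinery moved in both directions. Of 57 members of the list 38 rose and 12 fell, while 7 were not called, with a median of 0.23, which turned to -0.11 with scaling to library totals. Herpud1, a component of the degradation machinery, was at 151, 152 and 157 CPM in the young and 580.5, 569 and 571 CPM in the aged libraries (log2 fold change 1.90, SE 0.0336, adjusted p = 1.89e-33). Tram2, which assists translocation, rose by 2.37, and the degradation factor Derl3 of the plasma cell list was 29.6-fold higher, at 186, 175 and 185 CPM in aged against 5.65, 6.13 and 6.67 CPM in young libraries. Some abundant chaperones went the other way. Hspa5 (BiP) was at 1984, 2012 and 2022 CPM in the young and 1370.2, 1367 and 1388 CPM in the aged libraries (log2 fold change -0.54, SE 0.0177, adjusted p = 5.60e-25). The lectin chaperone Canx fell by 0.67 and Calr fell by 0.16.

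The promoters of 45 members of this list were in the RefSeq table (GRCm38.p6, 250 bases before to 50 after the start), and 7 of them (15.6%) held the ER stress element, CCAAT and CCACG with any 9 bases between them, on either strand, against 0.137% of 27025 genes with a promoter in the table. Members with the element did not share a direction. Syvn1, Dnajc3 and Hsp90b1 rose (Hsp90b1 not with scaling to library totals), Hspa5, Calr and Canx fell, and Pdia6 had a log2 fold change of 0.05 (adjusted p = 0.0857). Their median was 0.05, against 0.36 for the 38 members without it. Syvn1, an E3 ligase of the degradation pathway, went from 140.5 ± 2.16 to 218 ± 5.97 CPM and Dnajc3, a cochaperone of BiP, from 174 ± 4.54 to 255 ± 8.80 CPM. The 250 bases before the start are shown for these 2 members that rose and for Hspa5 and Canx, which fell, with the element in capitals. They are printed 5′ to 3′ in the direction of the gene, at chr19:6046326-6046575, plus strand (Syvn1), chr14:118937682-118937931, plus strand (Dnajc3), chr2:34771840-34772089, plus strand (Hspa5) and chr11:50325674-50325923, minus strand (Canx).
Syvn1: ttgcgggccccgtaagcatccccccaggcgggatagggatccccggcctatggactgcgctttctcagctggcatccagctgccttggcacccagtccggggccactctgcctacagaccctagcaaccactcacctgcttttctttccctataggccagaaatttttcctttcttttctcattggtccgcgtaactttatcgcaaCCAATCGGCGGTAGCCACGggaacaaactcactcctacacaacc
Dnajc3: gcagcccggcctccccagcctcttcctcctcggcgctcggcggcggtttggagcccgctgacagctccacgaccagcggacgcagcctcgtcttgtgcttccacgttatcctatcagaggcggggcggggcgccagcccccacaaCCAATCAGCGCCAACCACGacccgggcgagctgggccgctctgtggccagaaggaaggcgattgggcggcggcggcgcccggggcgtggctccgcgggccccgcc
Hspa5: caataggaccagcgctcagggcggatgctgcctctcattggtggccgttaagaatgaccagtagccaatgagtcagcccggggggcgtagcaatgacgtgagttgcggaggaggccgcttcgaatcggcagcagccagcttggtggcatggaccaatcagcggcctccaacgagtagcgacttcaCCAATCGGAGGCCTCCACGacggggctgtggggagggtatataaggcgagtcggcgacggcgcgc
Canx: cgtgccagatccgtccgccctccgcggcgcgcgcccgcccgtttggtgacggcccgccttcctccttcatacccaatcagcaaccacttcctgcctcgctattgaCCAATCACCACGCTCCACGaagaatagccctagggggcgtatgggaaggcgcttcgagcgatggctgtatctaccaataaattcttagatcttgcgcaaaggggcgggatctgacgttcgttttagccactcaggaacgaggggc

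Mature B cell genes rose while those of their precursors fell. Of 25 mature B cell genes 23 rose and 2 fell (median 2.62). Ms4a1 (CD20), a surface marker that plasma cells lose, was at 10.8, 11.7 and 12.6 CPM in the young and 227, 222 and 222 CPM in the aged libraries (log2 fold change 4.26, SE 0.0679, adjusted p = 7.05e-35). Fcmr, the receptor for IgM, went from 8.49 ± 0.840 to 237 ± 7.05 CPM, and Cxcr5, which guides B cells into follicles, from 2.36 ± 0.116 to 39.4 ± 2.17 CPM. Cd79a and Cd79b, the signalling chains of the B cell receptor, rose by 2.38 and 2.41. The 2 genes that fell were Ebf1, a factor of early B cell commitment, at 78.6, 79.2 and 79.2 CPM in the young and 36.0, 36.3 and 40.7 CPM in the aged libraries, and Cd24a, at 525, 512 and 512 CPM in the young and 383, 389 and 392 CPM in the aged libraries. Both are also expressed by precursors.

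Of 16 B cell precursor genes 15 fell and 1 rose (median -3.72), and the groups did not overlap for any of them. The surrogate light chain genes Igll1 and Vpreb1, which form the receptor of pre-B cells, were at 111, 113 and 109 CPM in the young and 5.13, 4.17 and 2.82 CPM in the aged libraries for Igll1 (log2 fold change -4.78, SE 0.0972, adjusted p = 1.84e-31) and at 73.6, 70.8 and 74.5 CPM in the young and 4.39, 3.83 and 4.48 CPM in the aged libraries for Vpreb1 (log2 fold change -4.10, SE 0.101, adjusted p = 7.89e-29). The recombinase genes Rag1 and Rag2, which cut immunoglobulin genes for assembly, fell by 4.15 and by 4.11. Dntt, which adds bases at the joints, stood at 282, 284 and 279 CPM in the young and 56.8, 58.2 and 55.9 CPM in the aged libraries. It remained measurable in each aged library, and Rag2 was at 0.133, 0.417 and 0.276 CPM there. Lef1 and Sox4, transcription factors of lymphoid progenitors, fell by 4.12 and by 2.26, and Il7r, the receptor for the main growth factor of B precursors, fell by 0.82. The gene that rose was Blnk, an adaptor of the B cell receptor that mature B cells keep, which rose by 0.69 (adjusted p = 4.43e-13).

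All 13 genes of MHC class II presentation rose (median 3.38). Cd74, the invariant chain, was at 249.7, 243 and 241 CPM in the young and 4208, 3989 and 4142 CPM in the aged libraries (log2 fold change 4.07, SE 0.0234, adjusted p = 5.49e-49). The class II chains H2-Aa and H2-Eb1 were 14.4-fold and 16.6-fold higher, and Ciita, the transactivator of the class, rose from 8.47 ± 0.488 to 88.2 ± 7.64 CPM. H2-DMa and Ifi30, which dendritic cells and monocytes also express, rose less, by 1.11 and 0.66. Of 20 genes of MHC class I presentation 18 rose and 1 fell (median 0.69). B2m, the shared light chain, went from 882 ± 4.81 to 1686 ± 13.1 CPM, and H2-T23 from 148 ± 3.68 to 481 ± 9.92 CPM, while the trimming peptidase Erap1 fell by 0.51. Class I genes resemble each other, and reads could be split among them.

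Genes of T and natural killer cells were mixed in level and direction: 21 of 30 were higher and 3 lower, with 6 not called (median log2 fold change 1.07). Cd2, an adhesion receptor that mouse B cells also carry, went from 4.35 ± 1.09 to 66.4 ± 2.09 CPM, and Cd8b1 from 0.730 ± 0.226 to 8.07 ± 1.81 CPM. The natural killer genes Gzma and Ncr1 went the other way, from 3.03 ± 0.822 to 0.979 ± 0.0759 CPM and from 1.80 ± 0.406 to 0.573 ± 0.357 CPM. Ccl5, a chemokine of memory T cells, was at 6.40, 5.26 and 6.18 CPM in the young and 38.4, 38.8 and 37.1 CPM in the aged libraries (log2 fold change 2.68, SE 0.0848, adjusted p = 2.38e-25). Ctla4, an inhibitory receptor of T cells, was among the 20 largest rises at 3.95, 3.01 and 4.43 CPM in the young and 145, 155 and 155 CPM in the aged libraries (log2 fold change 5.32, SE 0.1002, adjusted p = 1.49e-32). The defining T cell gene Cd3e remained low in comparison, at 1.70, 1.75 and 1.75 CPM in the young and 5.13, 5.57 and 7.03 CPM in the aged libraries. All 8 Gimap genes, GTPases of lymphocytes, rose (median 2.25), with Gimap3 at 17.2, 16.9 and 14.7 CPM in the young and 178, 176 and 186 CPM in the aged libraries and Gimap4 at 14.8, 12.6 and 12.3 CPM in the young and 133, 115 and 116 CPM in the aged libraries.

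Beyond the B lineage lists, the largest changes included genes of signalling and adhesion. Gnb3, a G protein subunit, had the largest log2 fold change of the genes eligible to be named, at 0.04997, 0 and 0.0547 CPM in the young and 18.4, 18.4 and 17.5 CPM in the aged libraries (log2 fold change 8.74, SE 0.396, adjusted p = 1.36e-20). Bmp6, a ligand of the BMP family, went from 0.105 ± 0.0478 to 12.6 ± 0.640 CPM, and Cacna1h, a T-type calcium channel, from 7.21 ± 0.593 to 248.8 ± 5.81 CPM. The interleukin receptor Il9r rose by 5.17, and the adhesion protein Gpnmb rose by 5.17. At the other end, 16 of the 20 largest falls were in members of the lists on stroma and bone, late neutrophils, eosinophils or B precursors. Gfra2 and Gfra1, co-receptors for ligands of the GDNF family, were at 37.5, 38.1 and 34.0 CPM in the young and 1.53, 0.696 and 1.38 CPM in the aged libraries for Gfra2 and at 20.1, 21.95 and 22.1 CPM in the young and 0.732, 0.765 and 0.896 CPM in the aged libraries for Gfra1. Acod1, which makes itaconate in activated macrophages, fell by 4.99, and C5ar1, the complement receptor of myeloid cells, fell by 4.30.

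Stem and progenitor cell genes moved in both directions. Of 32 genes that identify stem and progenitor cells 16 rose and 9 fell, while 7 were not called, with a median of 0.13 that turned to -0.21 with scaling to library totals. Among those that rose were some used to mark long-term stem cells. Ly6a (Sca-1), which is also on activated lymphocytes, was at 18.8, 17.6 and 16.9 CPM in the young and 252, 242 and 247 CPM in the aged libraries (log2 fold change 3.79, SE 0.0435, adjusted p = 1.79e-39). Slamf1 (CD150) was at 0.949, 1.04 and 1.20 CPM in the young and 7.12, 6.89 and 6.61 CPM in the aged libraries (log2 fold change 2.69, SE 0.218, adjusted p = 2.88e-13). Procr was at 2.90, 2.68 and 3.06 CPM in the young and 15.3, 13.0 and 18.3 CPM in the aged libraries (log2 fold change 2.43, SE 0.146, adjusted p = 6.55e-17). In all 3 genes every aged library was above every young one, although Slamf1 and Procr remained low. Neo1, a netrin receptor, went from 0.252 ± 0.143 to 5.66 ± 1.18 CPM, Mecom from 7.29 ± 0.513 to 15.0 ± 1.52 CPM and Hoxb5 from 0.141 ± 0.0283 to 1.15 ± 0.538 CPM. Other members were lower, among them the stem and mast cell factor Gata2, given below with the lineage factors. Flt3, the receptor that marks lymphoid-primed progenitors, was at 191, 186 and 182 CPM in the young and 101, 103 and 111 CPM in the aged libraries (log2 fold change -0.83, SE 0.0398, adjusted p = 7.72e-20). Cd34 fell by 0.49, Kit fell by 0.33, and Itga2b (CD41) fell by 0.99. The stem cell transcription factors Hlf and Meis1 had log2 fold changes of 0.01 (adjusted p = 0.91) and 0.02 (adjusted p = 0.826), and Hoxa9 of -0.03 (adjusted p = 0.767).

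**Figure D4:**
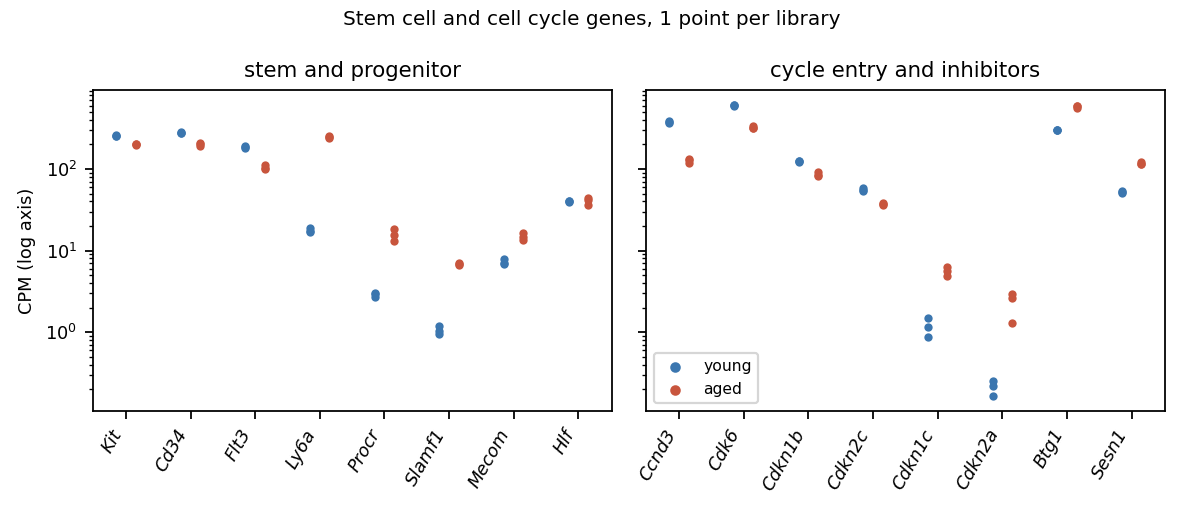
Level in CPM (vertical log axis) of 8 stem and progenitor cell genes and of 8 genes of cell cycle entry and its inhibitors, 1 point per library, young in blue and aged in red. Ly6a, Procr, Slamf1, Cdkn1c and Cdkn2a are higher in every aged library, Flt3, Ccnd3 and Cdk6 lower, and the groups overlap for Hlf.

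A list of genes known to be higher in old stem cells was mostly higher here too: 29 of 38 were higher and 7 lower, with 2 not called (median log2 fold change 1.13). Selp (P-selectin), an adhesion receptor of platelets and old stem cells, was at 6.85, 5.91 and 5.85 CPM in the young and 23.4, 19.4 and 23.6 CPM in the aged libraries (log2 fold change 1.83, SE 0.102, adjusted p = 7.12e-18). Mt1, a metallothionein, went from 40.5 ± 0.156 to 112 ± 1.05 CPM, and Plscr2, a phospholipid scramblase, from 0.105 ± 0.0478 to 2.89 ± 0.243 CPM. The 7 members that fell included Fyb, Ptger4 and Itgb3, by 1.35, 0.56 and 0.36. Plasma cell markers rose in the same libraries, with the summed level of the 25 plasma cell genes at 1820 to 1849 CPM in young and 7054 to 7159 CPM in aged libraries, and their part in this result was not tested.

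Growth factor receptors were more often lower: 12 of 39 were higher and 23 lower, with 4 not called (median log2 fold change -0.27). Notch1, the receptor that directs T lineage commitment, was at 184, 197 and 185 CPM in the young and 60.6, 59.4 and 62.7 CPM in the aged libraries (log2 fold change -1.63, SE 0.0436, adjusted p = 1.15e-27). Csf2rb2 and Csf3r, receptors of myeloid growth factors, fell by 1.37 and by 0.45. The largest rises were steeper than the largest falls. Bmpr1a, a BMP receptor, was at 0.550, 0.986 and 1.09 CPM in the young and 22.4, 23.4 and 21.7 CPM in the aged libraries (log2 fold change 4.69, SE 0.175, adjusted p = 3.83e-23), and Il5ra, the interleukin 5 receptor of eosinophils and B-1 cells, at 1.95, 1.97 and 2.62 CPM in the young and 30.8, 30.8 and 34.7 CPM in the aged libraries (log2 fold change 3.88, SE 0.164, adjusted p = 1.77e-21). Tgfbr2 went from 39.7 ± 1.03 to 108 ± 4.80 CPM. Of 19 measured Hox genes and Hox cofactor genes 7 rose and 3 fell, while 9 were not called, with a median of 0.14 that turned to -0.20 with scaling to library totals. Meis3 and Hoxa5 rose from 0.984 ± 0.343 to 12.7 ± 0.877 CPM and from 5.90 ± 0.138 to 12.3 ± 0.215 CPM.

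Genes of cell division fell almost throughout. Of 56 genes of DNA replication 52 fell and 1 rose, while 3 were not called (median -0.73). Of 44 genes of mitosis 43 fell and 1 was not called (median -0.91). Mki67, the proliferation marker Ki-67, was at 1184, 1195 and 1207 CPM in the young and 351, 382 and 369 CPM in the aged libraries (log2 fold change -1.70, SE 0.0248, adjusted p = 3.53e-36). Pcna, the sliding clamp of the polymerase, was at 518, 518 and 504 CPM in the young and 319, 309 and 311 CPM in the aged libraries (log2 fold change -0.72, SE 0.0258, adjusted p = 1.32e-23). The helicase subunits Mcm6 and Mcm7 fell by 0.82 and by 0.79, and the activator E2f2 and the repressor E2f7, which are themselves made in S phase, fell by 1.58 and by 1.68. Cenpf of the kinetochore and the condensin subunit Ncapd2 fell by 1.39 and by 1.01. Orc5 was the replication gene that rose, by 0.38 (adjusted p = 5.19e-04), and it was not called with scaling to library totals.

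Genes of S phase are known to be controlled by E2F factors. Promoters were at hand for 46 of the replication genes, and 13 of them (28.3%) held TTTCGCGC or TTTGGCGC on either strand, which can overlap each other, against 0.929% of all genes with a promoter in the RefSeq table. All 13 were called lower, with a median log2 fold change of -0.96, and the 33 without either motif had a median of -0.66. The 250 bases before the start are shown for the 3 largest falls among replication genes with a match there, with the match in capitals: Uhrf1 (chr17:56304063-56304312, plus strand), Pola1 (chrX:93632156-93632405, minus strand) and Dnmt1 (chr9:20952624-20952873, minus strand), 5′ to 3′ in the direction of the gene. Their levels went from 450.4 ± 6.70 to 162 ± 4.97 CPM, from 159.5 ± 3.25 to 62.9 ± 1.90 CPM and from 693 ± 7.94 to 340.1 ± 3.30 CPM.
Uhrf1: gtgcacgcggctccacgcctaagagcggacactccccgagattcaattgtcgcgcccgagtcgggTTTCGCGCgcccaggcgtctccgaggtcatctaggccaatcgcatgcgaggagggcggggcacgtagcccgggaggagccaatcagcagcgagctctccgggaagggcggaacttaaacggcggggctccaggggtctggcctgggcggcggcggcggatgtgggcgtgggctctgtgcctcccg
Pola1: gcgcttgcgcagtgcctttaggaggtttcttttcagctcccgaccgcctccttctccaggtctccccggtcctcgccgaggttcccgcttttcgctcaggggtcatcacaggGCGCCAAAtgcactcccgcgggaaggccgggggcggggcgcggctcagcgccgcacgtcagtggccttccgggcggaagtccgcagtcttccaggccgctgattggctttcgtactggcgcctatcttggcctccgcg
Dnmt1: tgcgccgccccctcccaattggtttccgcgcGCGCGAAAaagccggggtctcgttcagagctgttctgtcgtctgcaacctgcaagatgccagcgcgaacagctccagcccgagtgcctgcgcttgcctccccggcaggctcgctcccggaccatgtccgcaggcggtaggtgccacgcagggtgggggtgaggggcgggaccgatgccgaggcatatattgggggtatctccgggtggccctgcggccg

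Genes that govern entry into the cycle were divided: 10 of 31 were higher and 15 lower, with 6 not called (median log2 fold change -0.01). Among the cyclins and kinases of G1, Ccnd3 was at 386, 374 and 366 CPM in the young and 119, 132 and 129 CPM in the aged libraries (log2 fold change -1.57, SE 0.0363, adjusted p = 1.13e-29), and Cdk6, its partner in progenitors, at 600.4, 611 and 615 CPM in the young and 315, 341 and 319 CPM in the aged libraries (log2 fold change -0.91, SE 0.0266, adjusted p = 2.27e-26). Ccnd2, Cdk2 and Cdk4 fell by 0.51, 0.72 and 0.21, and Ccnd1 went from 23.5 ± 2.02 to 11.8 ± 1.86 CPM. The inhibitors did not move as 1 group. Cdkn2a, which encodes p16 and p19 and is the inhibitor most often tied to senescence, was at 0.250, 0.164 and 0.219 CPM in the young and 2.60, 2.92 and 1.31 CPM in the aged libraries (log2 fold change 3.38, SE 0.411, adjusted p = 5.53e-09). Cdkn1c (p57), which holds stem cells in quiescence, was at 1.499, 1.15 and 0.875 CPM in the young and 4.86, 6.26 and 5.65 CPM in the aged libraries (log2 fold change 2.24, SE 0.265, adjusted p = 3.24e-09). Both were low in all libraries, and Cdkn2b went from 0.0531 ± 0.0547 to 0.618 ± 0.193 CPM. The more abundant inhibitors Cdkn1b, Cdkn2c and Cdkn1a fell by 0.53, 0.61 and 0.27. Targets of p53 were divided as well. Sesn1, Zmat3 and Bax rose by 1.17, 1.34 and 0.55, Trp53 itself fell by 0.58, and Mdm2, its feedback inhibitor, had a log2 fold change of 0.03 (adjusted p = 0.561). The antiproliferative Btg1 went from 304 ± 1.76 to 585 ± 17.8 CPM and Gadd45b from 38.4 ± 2.13 to 88.9 ± 5.96 CPM.

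DNA repair and chromatin genes were mostly lower. Of 54 repair genes 9 rose and 37 fell, while 8 were not called (median -0.42). Brca1 and Fanci, which act on broken and stalled replication forks, fell by 1.57 and by 1.30. The excision repair genes Xpa and Ercc4 rose, Xpa from 10.1 ± 1.82 to 23.4 ± 1.66 CPM and Ercc4, which was not called with scaling to library totals, from 26.3 ± 0.858 to 36.6 ± 1.38 CPM. Among 34 chromatin regulators 7 rose and 25 fell (median -0.41). Cbx7, a Polycomb subunit of stem cells and lymphocytes, was at 23.5, 22.2 and 23.6 CPM in the young and 217, 228 and 224 CPM in the aged libraries (log2 fold change 3.27, SE 0.0571, adjusted p = 1.24e-33), whereas Cbx2, the paralogue of dividing cells, went from 18.2 ± 0.591 to 6.25 ± 0.927 CPM. Ezh1 rose by 0.92 and Hmga2, a fetal stem cell factor, fell by 2.12.

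Neutrophil genes differed by the stage at which they are made. Of 27 genes of late granules and mature neutrophils 26 fell and 1 was not called (median -2.84). S100a9 was at 1237, 1234 and 1327 CPM in the young and 209.7, 196 and 191 CPM in the aged libraries (log2 fold change -2.67, SE 0.0324, adjusted p = 1.08e-38). Ly6g, the surface marker of mature neutrophils, was at 11.7, 11.8 and 13.5 CPM in the young and 0.599, 0.139 and 0.482 CPM in the aged libraries (log2 fold change -4.89, SE 0.281, adjusted p = 6.55e-17). Retnlg, Mmp8 and Mmp9 fell by 5.36, by 4.32 and by 4.21. Genes of primary granules, made earlier by promyelocytes, did otherwise: 13 of 20 were higher and 4 lower, with 3 not called (median log2 fold change 0.42), and the median was 0.08 with scaling to library totals. Elane, neutrophil elastase, was at 1372, 1399.9 and 1387 CPM in the young and 2773, 2736 and 2876 CPM in the aged libraries (log2 fold change 1.01, SE 0.0212, adjusted p = 5.05e-31). Ctsg and Ms4a3 rose by 0.93 and by 1.21, and so did Gfi1, the factor that directs granulocyte fate, from 48.6 ± 3.19 to 99.4 ± 6.36 CPM. Mpo, the most familiar of these genes, went from 6019.9 ± 87.9 to 7254 ± 182 CPM, and its direction turned with scaling to library totals. The late granule list took 0.741%, 0.744% and 0.762% of counts in young and 0.0955%, 0.0942% and 0.0905% in aged libraries.

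Eosinophil, basophil and mast cell genes were mostly lower, and monocyte, macrophage and dendritic cell genes moved in both directions. Of 28 monocyte and macrophage genes 8 rose and 13 fell (median -0.21). Fn1, fibronectin, was at 185, 191 and 186 CPM in the young and 12.9, 10.9 and 10.1 CPM in the aged libraries (log2 fold change -4.05, SE 0.0680, adjusted p = 3.64e-34), and Lyz2 fell by 2.83. Marco and Cd5l, genes of resident macrophages, rose from 0.143 ± 0.0660 to 1.26 ± 0.505 CPM and from 1.05 ± 0.465 to 3.62 ± 0.885 CPM. Of 10 eosinophil genes 8 fell and 1 rose, while 1 was not called (median -2.08). The granule proteins Epx and Prg2 fell by 2.11 and by 1.17, and Alox15, a lipoxygenase, was at 36.4, 32.2 and 34.2 CPM in the young and 0.866, 2.44 and 2.07 CPM in the aged libraries (log2 fold change -4.27, SE 0.174, adjusted p = 5.57e-22). The eosinophil gene that rose was Il5ra, described above with the receptors, while the surface lectin Siglecf had a log2 fold change of -0.06 (adjusted p = 0.717). Of 15 basophil and mast cell genes 12 fell and 1 rose (median -1.51), with Hdc, which makes histamine, at 193, 196 and 183 CPM in the young and 88.8, 93.7 and 89.98 CPM in the aged libraries, and Il6 at 28.9, 29.1 and 27.997 CPM in the young and 1.07, 4.04 and 2.48 CPM in the aged libraries. Of 19 dendritic cell genes 7 rose and 10 fell. Siglech of plasmacytoid dendritic cells went from 30.0 ± 1.10 to 4.37 ± 1.07 CPM and Cd209a from 3.69 ± 0.610 to 0.161 ± 0.173 CPM, while Dnase1l3 and Ly6d, which B lineage cells also express, rose by 3.12 and by 2.62. The dendritic markers Ccr9 and Xcr1 rose by 0.86 (adjusted p = 5.87e-07) and 0.96 (adjusted p = 0.0396). Xcr1 was low, at means of 0.782 CPM in young and 1.52 CPM in aged libraries. The summed level of the dendritic list was 941 to 975 CPM in young and 956 to 1002 CPM in aged libraries.

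Most erythroid genes were lower. Of 35 measured genes 29 fell and 1 rose, while 5 were not called (median -1.26). The transcription factors Klf1 and Gata1 were at 34.9, 35.8 and 32.2 CPM in the young and 13.2, 13.8 and 11.4 CPM in the aged libraries for Klf1 (log2 fold change -1.42, SE 0.109, adjusted p = 7.10e-14) and at 29.3, 29.2 and 30.1 CPM in the young and 11.3, 12.9 and 9.37 CPM in the aged libraries for Gata1 (log2 fold change -1.40, SE 0.101, adjusted p = 1.27e-14). Slc4a1, the anion exchanger of the red cell membrane, fell by 3.65 and the early gene Car1 fell by 0.62. Promoters of 27 members were in the RefSeq table, and 9 (33.3%) held the GATA motif AGATAA on either strand, against 12.7% of all genes with a promoter there. Median log2 fold changes were -1.26 with and -1.21 without the motif. Of 28 megakaryocyte genes 18 fell and 5 rose, while 5 were not called (median -0.53). Thbs1 and the platelet chemokine Ppbp fell by 3.09 and by 2.13.

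Bone matrix genes were present in the young libraries and nearly gone from the aged. Col1a1, type I collagen, was at 270.3, 281 and 264 CPM in the young and 0.732, 1.11 and 1.03 CPM in the aged libraries (log2 fold change -8.14, SE 0.0850, adjusted p = 9.94e-41). Col5a2 was at 7.45, 8.32 and 8.97 CPM in the young and 0.133, 0.209 and 0.0689 CPM in the aged libraries (log2 fold change -5.84, SE 0.390, adjusted p = 1.22e-15), and Sparc at 42.3, 43.9 and 40.2 CPM in the young and 1.20, 3.83 and 2.41 CPM in the aged libraries (log2 fold change -4.09, SE 0.162, adjusted p = 2.37e-22). Bglap, osteocalcin, had 184 counts over the young and 0 over the aged libraries. Against a limit of 3 counts over the group it was at least 47.6-fold lower, and Bglap2, a near-identical copy, at least 32.6-fold lower. Of 23 measured genes of stroma and bone 14 fell and 3 rose, while 6 were not called (median -1.54). Cxcl12 and Lepr, genes of the perivascular stroma, went the other way, from 1.22 ± 0.116 to 5.84 ± 1.05 CPM and from 0.284 ± 0.194 to 1.52 ± 0.182 CPM. The endothelial genes Cdh5 and Emcn had log2 fold changes of -0.44 (adjusted p = 0.206) and 0.22 (adjusted p = 0.561), and Kdr fell by 1.54.

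The genes that encode ribosomal proteins rose together, whereas those that build ribosomes did not. Of 83 measured ribosomal protein genes 75 rose and 8 were not called (median 0.56, and 0.22 with scaling to library totals). Rpsa was at 2052, 1972 and 1961 CPM in the young and 2852, 2709.5 and 2821 CPM in the aged libraries (log2 fold change 0.49, SE 0.0188, adjusted p = 1.11e-22), and Rps27 at 132, 144 and 122 CPM in the young and 369.9, 388 and 318 CPM in the aged libraries (log2 fold change 1.44, SE 0.0511, adjusted p = 8.16e-24). Many of these genes have processed copies, so that reads could be shared. Of 30 ribosome biogenesis genes 2 rose and 17 fell (median -0.18). The nucleolar proteins Npm1 and Heatr1 fell by 0.20 and by 0.85. Of 79 nuclear genes of oxidative phosphorylation 43 rose and 7 fell (median 0.15, which turned to -0.19 with scaling to library totals). Of 13 mitochondrially encoded genes 10 rose and 2 fell. Their summed share of all counts was nonetheless lower in aged libraries, at 1.26, 1.32 and 1.29% against 1.37, 1.38 and 1.38% in the young. mt-Cytb and mt-Nd6 rose by 0.44 and by 0.82, and mt-Nd3 fell by 2.15. Histone genes are mostly not polyadenylated and thus poorly captured here. Of 50 measured, 27 fell and 1 rose, while 22 were not called, and the 1 that rose, Hist1h1c, is a linker histone with polyadenylated transcripts, at 167, 168 and 165 CPM in the young and 297, 299 and 301 CPM in the aged libraries.

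Stress and inflammation genes gave no single direction. Of 40 interferon-stimulated genes 8 rose and 25 fell, while 7 were not called (median -0.42). Oas3, an antiviral sensor, was at 23.5, 26.4 and 27.2 CPM in the young and 6.99, 6.89 and 5.51 CPM in the aged libraries (log2 fold change -1.99, SE 0.0783, adjusted p = 2.01e-22), and Ifi204 fell by 2.96. Zbp1 and Ifitm1 rose by 1.51 and 1.06. The Schlafen genes gave 5 lower and 2 not called of 7, with Slfn4 at 62.9, 61.8 and 66.6 CPM in the young and 5.99, 7.58 and 4.96 CPM in the aged libraries. Of 28 heat shock genes 23 fell and 1 rose (median -0.29). Hspa8 was at 2344, 2339 and 2316 CPM in the young and 1638, 1658 and 1638 CPM in the aged libraries (log2 fold change -0.50, SE 0.0160, adjusted p = 2.60e-25), and the inducible Hspa1a, which has a near-identical copy in Hspa1b, went from 14.9 ± 1.27 to 2.20 ± 0.994 CPM. Hspb1, the 1 that rose, went from 0.645 ± 0.270 to 3.87 ± 0.912 CPM. Of 31 immediate early genes 19 rose and 9 fell (median 0.48, and 0.14 with scaling to library totals). Junb and Zfp36 rose by 1.30 and by 0.66, and Dusp6, a phosphatase that is switched on by ERK signalling, was at 196, 182 and 184 CPM in the young and 45.3, 44.3 and 47.1 CPM in the aged libraries (log2 fold change -2.04, SE 0.0461, adjusted p = 5.54e-30). Under ATF4, the factor of the integrated stress response, 13 of 26 genes rose and 10 fell, with Slc3a2 at 202, 200.004 and 205 CPM in the young and 623, 616 and 612 CPM in the aged libraries and Chac1 rising from 2.19 ± 0.108 to 12.1 ± 1.34 CPM, while the cystine carrier Slc7a11 went from 3.74 ± 0.312 to 0.752 ± 0.0173 CPM. The median of this list, 0.18, turned to -0.16 with scaling to library totals.

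Among genes of NF-kB signalling and pattern recognition 15 of 29 rose and 11 fell, with a median of 0.16 that turned to -0.18 with scaling to library totals. Relb, of the noncanonical arm, was at 11.6, 10.5 and 11.6 CPM in the young and 40.3, 38.1 and 48.5 CPM in the aged libraries (log2 fold change 1.91, SE 0.0891, adjusted p = 3.28e-20). Toll-like receptors moved apart, with Tlr1 going from 4.67 ± 0.505 to 31.3 ± 2.30 CPM and Tlr13 from 11.8 ± 1.05 to 0.682 ± 0.110 CPM. Of 40 chemokine, receptor and adhesion genes 16 rose and 19 fell. Ccr7, the lymph node homing receptor, was at 11.2, 10.5 and 10.7 CPM in the young and 89.5, 93.3 and 81.6 CPM in the aged libraries (log2 fold change 3.03, SE 0.0829, adjusted p = 2.36e-27), and the integrin Itga4, which holds progenitors in the marrow, at 363, 376 and 375 CPM in the young and 185, 201 and 186 CPM in the aged libraries (log2 fold change -0.96, SE 0.0327, adjusted p = 2.12e-24). Glycolysis, cholesterol, antioxidant, lysosome, proteasome and mitochondrial ribosome genes had list medians between -0.09 and 0.10. Single members stood out of them. The glucose transporter Slc2a3 fell by 1.63 and Slc2a1 rose by 0.78. Abca1, the cholesterol exporter, was at 15.8, 17.4 and 16.2 CPM in the young and 71.8, 75.1 and 73.0 CPM in the aged libraries (log2 fold change 2.16, SE 0.0798, adjusted p = 2.93e-23). Sqstm1, an autophagy receptor, went from 196 ± 4.42 to 417 ± 8.91 CPM. Of 19 clock genes, Bhlhe41, a repressor of the clock that B-1 cells also express, was at 2.25, 2.74 and 2.46 CPM in the young and 59.3, 66.9 and 59.9 CPM in the aged libraries (log2 fold change 4.64, SE 0.126, adjusted p = 1.98e-27), and Arntl fell by 1.06. Among 18 measured imprinted genes 9 rose and 5 fell, with Meg3 at 1.55, 1.75 and 1.15 CPM in the young and 6.59, 7.86 and 6.75 CPM in the aged libraries.

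Lineage transcription factors moved in both directions: 15 of 47 were higher and 24 lower, with 8 not called (median log2 fold change -0.20). Ikzf3, a factor of mature B and plasma cells, was at 27.8, 23.3 and 29.6 CPM in the young and 166, 183 and 177 CPM in the aged libraries (log2 fold change 2.70, SE 0.0670, adjusted p = 1.02e-28). Gata2, a stem and mast cell factor, was at 145, 146 and 146 CPM in the young and 89.6, 86.1 and 87.6 CPM in the aged libraries (log2 fold change -0.73, SE 0.0374, adjusted p = 5.04e-19). Myb and Ikzf1, which progenitors of most lineages use, fell by 0.31 and by 0.39, and Irf8 of monocyte and dendritic progenitors fell by 0.52.

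The change also varied with the length of the gene, though hardly among genes of low level. Protein-coding genes were divided into 10 equal classes by exonic length. The median log2 fold change was 0.23 in the class of the shortest and -0.26 in that of the longest genes, and it fell at each step between them. In the shortest class 44.5% of genes were higher and 16.0% lower, and in the longest 21.4% and 57.1%. The difference between the longest and shortest class was -0.49 in all genes, and -0.51 without the members of any gene list. It was -0.19, -0.42 and -0.57 among genes of low, middle and high level. The Spearman correlation of length and change across the genes of these classes was -0.0012, -0.228 and -0.373. The difference between the longest and shortest class was -0.40 and -0.55 in genes below and above the median GC content. In the fit without immunoglobulin genes and Jchain it was -0.49. Genes are not independent replicates, so that no p is given.

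**Figure D5:**
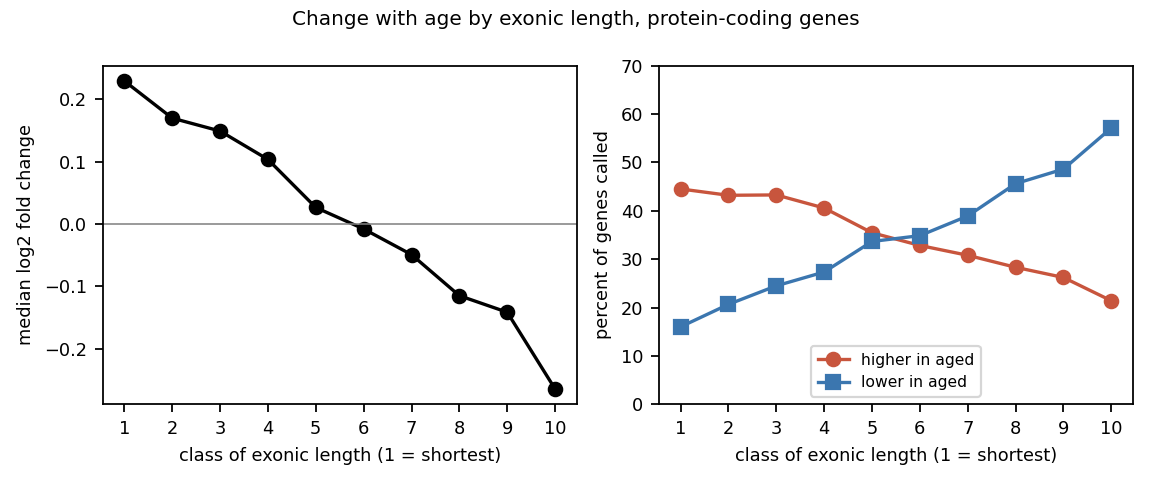
Median log2 fold change (left) and percent of genes called (right) by class of exonic length, from the shortest (1) to the longest (10), for protein-coding genes. The median falls from 0.23 to -0.26, and the share called lower rises from 16.0% to 57.1%.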

How the data were processed

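Trizol extracts gave messenger RNA by poly-T capture, which was read as pairs of 150 bp, per the labels' protocols. HISAT2 2.0.5 and the mm10 build are named in the submitters' processing notes. What the authors deposited is a table of raw read counts for 54532 Ensembl gene IDs. For the counter, its gene models and its strand setting, nothing was given in the sources used here. Overlapping, antisense and near-identical genes are therefore uncertain. Symbols and positions came from GENCODE M21 (GRCm38), which matched 54495 IDs. Promoters came from RefSeq.

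Counts of all 12 libraries were fitted with edgeR 4.0.16 in R 4.3.3 (quasi-likelihood F-test, TMM factors, filterByExpr on 4 groups, 8 residual degrees of freedom), with Benjamini-Hochberg adjustment across every tested gene. The fit was repeated without immunoglobulin genes and Jchain. Scripts were tested on simulated data. SD is over the 3 libraries of a group. The totals bound a gene with 0 counts at 3 counts over a group, which covers counting error only.

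The comparison, its members and the gene lists were chosen with earlier results of these data known, and lists are described by counts and medians beside all genes. Named genes were the 20 largest changes in each direction (protein-coding, adjusted p under 0.05, at least 5 CPM on average, no overlap between groups), the most abundant and most changed called members of each list, or every member of some lists. Cd3e, the genes with a motif in their promoter, the kappa segments Igkv3-4 and Igkv8-24 and others so stated were added after their values were seen. Alternatives were DESeq2 1.42.0, limma 3.58.1 with voom, other scaling factors and filters, protein-coding genes only, the 6 libraries alone, a replicate block and leaving out each library. Scaling to totals after leaving out immunoglobulin genes and Jchain was added after seeing the data.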

Additional observations from a re-analysis of the deposited data

How the results depend on the processing

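The counts of genes called depended on the scaling and on little else that was tried. Scaling to library totals alone gave 3012 genes higher and 8614 lower in place of 5535 and 5354, so that 25.9% in place of 50.8% of calls were higher, and 2573 were lower by at least 1 on the log2 scale. It turned the direction of Mpo (log2 fold change -0.072) and Hsp90b1 (-0.00346), and of the uncalled Hlf (-0.33), Meis1 (-0.32), Mdm2 (-0.31) and Pdia6 (-0.29). Ercc4 and Orc5 were no longer called higher (log2 fold changes 0.13 and 0.04), while Hoxa9, Cdh5 and Siglecf became called lower. With immunoglobulin genes and Jchain left out first, library totals gave 5436 higher and 5293 lower. With protein-coding genes only, 937 of 13352 tested genes were lower by at least 1, against 1508 of 16675 in the main fit. The other counts stayed within 1.5 times of the reported ones under DESeq2, limma voom, the other scaling factors and filters and the fit of the 6 libraries. Leaving out each library in turn gave 5233 to 5359 genes higher, 5157 to 5276 lower, 2137 to 2224 higher by at least 1 and 1470 to 1570 lower by at least 1. Of the list medians of at least 0.1 in size, 2 moved by over 1.5 times, that of the Hox genes and cofactors from 0.14 to 0.27 without young replicate 3 and that of the NF-kB and pattern recognition genes from 0.16 to 0.098 without aged replicate 3. Replicate numbers are no pairing in the labels, and the deviations of same-numbered young and aged libraries had correlations of 0.0214, -0.00838 and -0.0455. A replicate block gave 5450 genes higher and 5318 lower.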

Other observations

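Genes outside the protein-coding class moved less evenly. Of 512 tested genes of the class TEC (gene models still awaiting an experimental test) 53 were higher and 223 lower in aged cells (median log2 fold change -0.72), whereas of 816 processed pseudogenes 201 were higher and 115 lower (median 0.17). On the X chromosome 25.1% of 431 protein-coding genes were higher and 42.7% lower (median -0.13), where the shares on single autosomes ran from 28.4 to 44.0% higher and from 27.8 to 42.8% lower. Xist, which silences one X chromosome in female cells, was at 1625, 1684 and 1687 CPM in the young and 802, 863 and 824 CPM in the aged libraries (log2 fold change -1.01, SE 0.0224, adjusted p = 3.35e-30).

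Some genes were near absent from one group. Of the tested genes, 25 had at most 3 counts over the young and more than 100 over the aged libraries, and 9 had the reverse. Besides the kappa segments and Gnb3 of the report, the 25 included Hcrtr2 with 0 counts over the young and 250 over the aged libraries and Trabd2b with 0 and 229, and the 9 included Heyl with 103 and 0. These 3 were chosen after their values were seen.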
